A study of Mus musculus with 23 samples.

Results

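Sciatic nerves (SNs) on the uninjured side of crushed mice were compared with SNs of mice whose nerves had not been crushed, to ask what changes in a nerve when the injury lies in another nerve of the same animal. The members were chosen by their labels: 4 contralateral and 3 uncrushed libraries, 7 of the 23 libraries of the series. The series holds whole-nerve RNA sequencing of a crush experiment and of mutants of the microRNA pathway, and the mutants are not described here. All mice of the crush experiment were wild-type C57bl6. The study's methods give the crushed mice as C57BL/6J males 2 months old, and state no separate age for the uncrushed mice. The contralateral mice were crushed at the sciatic notch of the other side under isoflurane, received the opioid buprenorphine around the operation, and their uninjured nerves were taken 3 days post crush (3 dpc). The uncrushed nerves are labelled as a surgery control, and the sources used here give neither what was done in that surgery, nor which drugs those mice received, nor the time of day at which nerves were taken. The methods count 4 and 3 mice, so each library was treated as 1 animal.

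An SN holds the axons of motor and sensory neurons, the myelinating and Remak Schwann cells (SCs) that wrap them, perineurial and endoneurial fibroblasts, blood vessels and resident macrophages. After a crush, SCs beyond the injury leave the myelinating state, turn on the transcription factor Jun and secrete trophic factors, and macrophages enter. An operation also reaches distant tissues through stress hormones, circulating cytokines and altered activity and feeding, and adult SCs respond to glucocorticoids and keep a daily clock of gene expression.

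The deposited expected counts (reads assigned to each transcript by the authors) were summed per gene. Totals ran from 9908994 to 12806066 counts in contralateral libraries and from 6617716 to 12252564 in uncrushed libraries, and an empty count in 1 library allows up to 0.234 to 0.453 CPM (counts scaled to library size, per 1e6). These limits cover counting error only. Levels below are CPM scaled by TMM over the 7 libraries, and differences are log2 fold changes of contralateral over uncrushed nerves from edgeR's quasi-likelihood fit, with their standard errors (SE). Libraries 2 of the contralateral and 3 of the uncrushed group stood apart: the first principal component held 44.4% of the variance and placed them at -34.6 and 44.1, with the other 5 between -16.3 and 11.3. They were also the deepest and the shallowest library, at 12806066 and 6617716 counts. Uncrushed library 1, at 12252564 counts, lay at 6.85 on that component, and the part of depth was not tested. Counts of the lists described most fully are given with and without contralateral nerve 2 and uncrushed nerve 3. The SC markers Mbp and Sox10 were abundant in each library, as a nerve label requires.

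Injury genes chosen from the paper were near the uncrushed level in contralateral nerves, which does not cover all genes that a crush raises. Jun, the regulator of the repair SC state, was measured at 29.4, 29.1, 27.4 and 31.4 CPM in contralateral nerves 1 to 4 and at 28.6, 26.9 and 21.5 CPM in uncrushed nerves 1 to 3 (log2 difference 0.18, SE 0.11, adjusted p = 0.388). Scaled over all 11 libraries of the experiment, Jun was at 193 ± 22.1 CPM (SD, n = 4) in crushed nerves, 30.5 ± 1.69 in contralateral nerves (n = 4) and 26.6 ± 3.45 in uncrushed nerves (n = 3). The ranges of Jun in contralateral and uncrushed nerves overlapped, and the lowest crushed nerve lay at 172 CPM. Shh, a signal made by repair SCs, was at 369 ± 70.0 CPM in crushed, 2.55 ± 0.473 in contralateral and 2.19 ± 0.701 in uncrushed nerves on the same scale. Ngfr, the p75 neurotrophin receptor of dedifferentiated SCs, was at 1056 ± 168 CPM in crushed nerves. It was at 46.3, 42.1, 38.5 and 35.3 CPM in contralateral and at 32.2, 29.6 and 37.4 CPM in uncrushed nerves (log2 difference 0.30, SE 0.11, edgeR fit, unadjusted p = 0.0206, adjusted p = 0.213), so that contralateral nerve 4 lay below uncrushed nerve 3. Ccl2, Gdnf and Plau, a chemokine, a trophic factor and a protease of the injury response, had log2 differences of 0.56, -0.70 and -0.60, each with overlapping groups. Timp1, Fgf5, Tfap2a and Lingo3 held at most 10 counts in any contralateral or uncrushed library and were not tested.

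**Figure D1:**
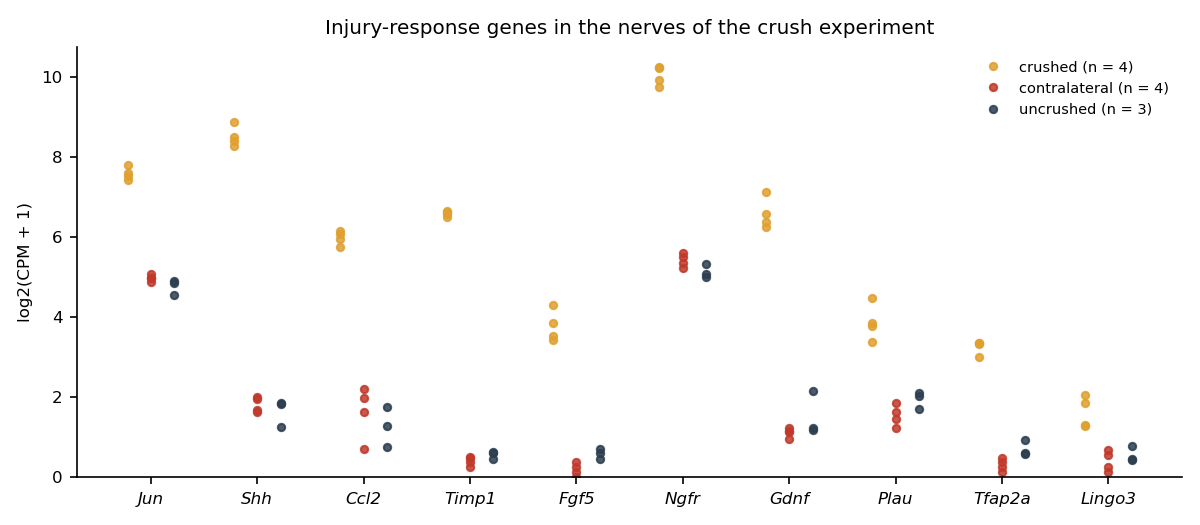
Levels of 10 injury-response genes, as log2(CPM + 1) scaled over all 11 libraries of the crush experiment, with 1 point per nerve of the crushed (n = 4), contralateral (n = 4) and uncrushed (n = 3) groups. For Jun, Shh, Ngfr and Timp1, all contralateral and uncrushed points lie together and far below the crushed points, which reach 1205 CPM for Ngfr.

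Across the transcriptome, no gene passed both a fold of 2 and an adjusted p of 0.05 (Benjamini-Hochberg) in either direction, 0% of the 17722 genes tested. The smallest adjusted p was 0.0855, shared by Plin4 and the long non-coding Gm26525. At the looser nominal limit, an unadjusted p under 0.05 in the edgeR fit, 1004 genes were higher in contralateral nerves (5.67% of those tested) and 2160 were lower (12.2%), 3164 or 17.9% together. Groups did not overlap for 1207 genes that were higher (6.81%) and 1644 that were lower (9.28%). The differences were small: the median log2 difference was -0.02, and the central 90% of genes lay between -0.90 and 0.30. Without contralateral nerve 2 and uncrushed nerve 3, 433 genes were higher and 962 lower at the nominal limit. With DESeq2 in place of edgeR, 723 were higher and 1669 lower, and 31 of the latter passed the strict limits. The account below therefore describes groups of genes by how many members passed the nominal limit and by their median, read against these shares and this median for all genes, and names no single gene as changed. The lists were chosen with earlier results of these data known, so their counts are descriptions.

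Part of the targets of glucocorticoid signalling lay on the lower side. Of 20 tested genes that glucocorticoids are known to induce in many tissues, 9 were lower at the nominal limit, none was higher, and the median log2 difference was -0.23. In all 9 the groups did not overlap. Because whole nerves were sequenced, fewer cells of a type and less RNA per cell cannot be told apart, here and in every group that follows.

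Fkbp5 (chromosome 17, 28399094 to 28517527, minus strand, GRCm38), a co-chaperone that limits the glucocorticoid receptor and is itself one of its targets, was measured at 32.1, 33.8, 37.4 and 50.1 CPM in contralateral and at 61.4, 67.4 and 77.6 CPM in uncrushed nerves. The highest contralateral nerve lay below the lowest uncrushed nerve, with a log2 difference of -0.84 (SE 0.14, adjusted p = 0.104). Zbtb16, a zinc finger transcription factor, was at 30.8, 25.8, 37.9 and 41.2 CPM against 63.0, 54.3 and 60.4 CPM (log2 difference -0.81, SE 0.14, adjusted p = 0.104). Hif3a, a member of the hypoxia-inducible factor family, showed the same log2 difference of -0.81, from 8.33, 8.93, 10.4 and 13.9 CPM against 19.0, 16.8 and 18.5 CPM. These 3 genes were thus lower in all 4 contralateral nerves than in any uncrushed nerve, by close to the same factor.

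The metallothioneins, small proteins that bind zinc and copper and are raised by glucocorticoids and by metals, varied more among contralateral nerves. Mt2 was at 64.5, 163, 147 and 231 CPM in contralateral and at 310.1, 282 and 299 CPM in uncrushed nerves (log2 difference -0.97, SE 0.29, adjusted p = 0.149). Mt1 was at 109, 195, 193 and 262 CPM against 329, 288 and 313 CPM (log2 difference -0.71, SE 0.21, adjusted p = 0.150). In both genes contralateral nerve 1 was lowest and nerve 4 nearest to the uncrushed nerves. The 4 further members, named after their values were seen, had smaller differences. These were Glul, the glutamine synthetase, at -0.32, Tsc22d3, an anti-inflammatory leucine zipper protein, at -0.33, and the transcription factors Klf9 and Cebpd at -0.28 and -0.18. Contralateral nerve 1 was the lowest of its group in 7 of the 9 genes and nerve 4 the highest in 8. The other 11 members lay between -0.28 (Sgk1, a kinase, with overlapping groups) and 0.14 (Dusp1, a phosphatase), so the group was not lower as a whole. Leaving out any 1 library left 6 to 9 members lower, and leaving out contralateral nerve 2 and uncrushed nerve 3 left 6, with a median of -0.28. The median was -0.14 without contralateral nerve 1.

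Promoter sequence was examined because the receptor of glucocorticoids and the clock factors each bind short, known motifs. Of the 20 members, 17 had an entry in RefSeq's promoter table (GRCm38.p6, 250 bases before to 50 after each start). ACANNNTGT, the core of the response motif of the glucocorticoid receptor and the same on both strands, was in 4 of these 17 genes (Glul, Lcn2, Mt1 and Sgk1), in 0 of 17 clock genes, and in 2135 of all 27025 genes of the table (7.9%). The E-box CACGTG, bound by the clock factors Clock and Arntl and also the same on both strands, was in 4 of the 17 glucocorticoid-responsive genes and in 5 of the 17 clock genes, against 8.09% of all genes. It was also in 4 of 16 genes of cholesterol synthesis, so its share was not particular to these 2 lists. The receptor core was in 1 of those 16. The windows below, 30 bases each on the gene's strand, show instances in genes whose levels are given here, with the motif in capitals.
Mt1, chr8:94178987-94179016, plus strand, glucocorticoid receptor core: cactatagggACATGATGTtccacacgtca
Glul, chr1:153899894-153899923, plus strand, glucocorticoid receptor core: gggggcgggcACAAGCTGTcaataaaaagt
Sgk1, chr10:21993694-21993723, plus strand, glucocorticoid receptor core: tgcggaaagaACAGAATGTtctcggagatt
Fkbp5, chr17:28486301-28486330, minus strand, E-box: gcaagggccagaCACGTGggcagcggtgaa
Tef, chr15:81802534-81802563, plus strand, E-box: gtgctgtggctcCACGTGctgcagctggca
Bhlhe41, chr6:145865556-145865585, minus strand, E-box: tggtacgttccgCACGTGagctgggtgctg
The motifs begin 92, 25, 186, 169, 127 and 153 bases upstream of the RefSeq starts used, in that order. A match of letters is a description of the window and no measurement of binding. Of the 3 genes shown with the receptor core, Mt1 and Glul were lower without overlap, whereas Sgk1 had overlapping groups.

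Clock genes lay in part on the higher side. Of 20 tested, 7 were higher at the nominal limit and none was lower, with a median log2 difference of 0.10. Nr1d1 (chromosome 11, 98767932 to 98775333, minus strand), a nuclear receptor that represses the clock's activators, was measured at 45.9, 41.6, 38.6 and 29.2 CPM in contralateral and at 24.1, 22.1 and 21 CPM in uncrushed nerves. Its groups did not overlap, and its log2 difference of 0.79 (SE 0.14, adjusted p = 0.104) was the largest of the list. Contralateral nerve 4, the one nearest to the uncrushed nerves for Fkbp5 and Mt2, was also the nearest for Nr1d1. Dbp, a transcription factor with a strong daily rhythm, was at 77.6, 84.2, 81.7 and 71.5 CPM against 66.8, 59.6 and 59.5 CPM (log2 difference 0.34, SE 0.09, adjusted p = 0.135). Nr1d2, the close relative of Nr1d1, spanned only 77.1 to 79.8 CPM in contralateral nerves and 65.0 to 67.5 CPM in uncrushed nerves, a log2 difference of 0.25 (SE 0.07). The 4 others past the nominal limit, named after their values were seen, were Bhlhe40 at 0.33, Bhlhe41 and the kinase gene Csnk1e at 0.24, and Tef, the relative of Dbp, at 0.20. In Bhlhe41 and Csnk1e the groups overlapped.

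Not all arms of the clock lay on that side. Per1 was at 70.9, 110.2, 115 and 109.8 CPM in contralateral and at 106, 99.7 and 78.2 CPM in uncrushed nerves, with a log2 difference of 0.09. Per2 had a difference of -0.11, Cry1 of -0.08, and Arntl, the activator, of 0.20 at only 0.980 to 2.42 CPM. All 4 overlapped between the groups. Nfil3, which opposes Dbp at its sites, was lower in mean, at 1.58 ± 0.395 CPM (SD, n = 4) against 2.48 ± 0.952 (n = 3), with overlapping groups and a log2 difference of -0.58 (SE 0.35). Leaving out 1 library left 4 to 7 members higher, 4 without contralateral nerve 2 or 3, and leaving out contralateral nerve 2 and uncrushed nerve 3 left 3.

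For reference, 5 of these genes were also read in the crushed nerves, scaled over 11 libraries, where their means were below those of either uninjured group: Fkbp5 25.4 ± 6.78 CPM, Zbtb16 6.69 ± 1.93, Mt1 63.8 ± 1.92, Mt2 22.5 ± 2.92 and Nr1d1 14.0 ± 1.51 (SD, n = 4), although the highest crushed nerve for Fkbp5, at 34.5 CPM, lay above the lowest contralateral one. Contralateral nerves were therefore between crushed and uncrushed nerves in mean for Fkbp5, Zbtb16, Mt1 and Mt2, but above both for Nr1d1.

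**Figure D2:**
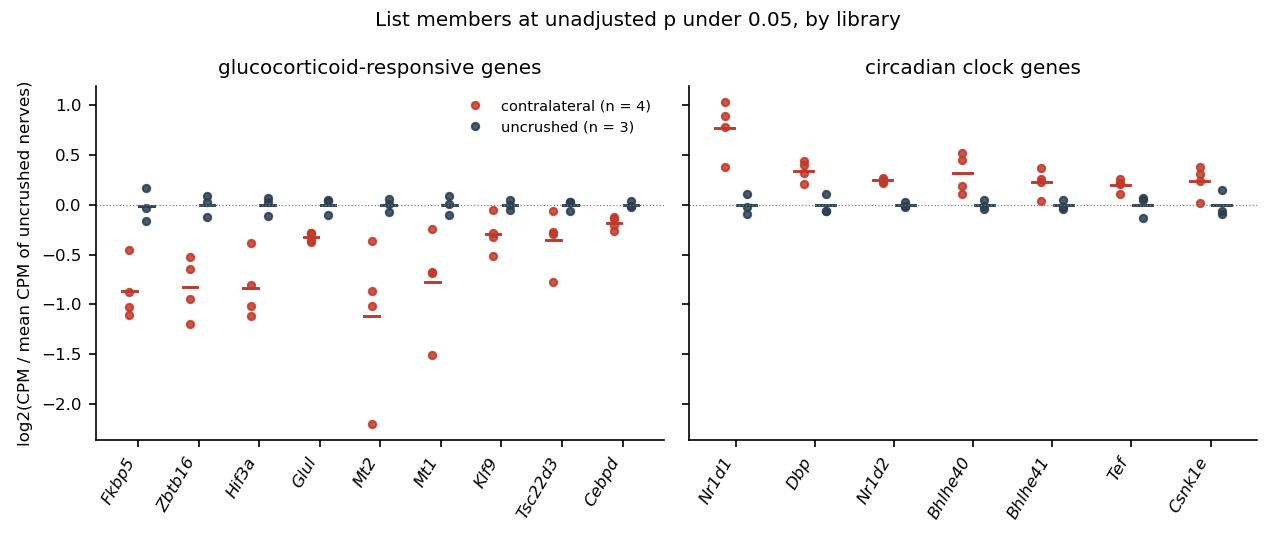
Members of the glucocorticoid-responsive list (left) and of the clock list (right) at the nominal limit, as log2 of CPM over the mean CPM of the uncrushed nerves, with 1 point per nerve and a line at each group's mean. Contralateral points lie below 0 for all 9 glucocorticoid-responsive genes and above 0 for all 7 clock genes, with Mt2 in contralateral nerve 1, at 64.5 CPM, farthest from its group.

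Genes of lipid and myelin formation leaned to the higher side, and this leaning rested in part on contralateral nerve 2. Of 23 tested genes of cholesterol synthesis and uptake, 9 were higher at the nominal limit, none was lower, all 23 had a positive difference, and the median was 0.24. Myelinating SCs make most of their cholesterol themselves, since myelin consumes it in bulk. Fdft1, the squalene synthase, was at 230.2, 266, 229 and 204 CPM against 166, 199.7 and 191 CPM (log2 difference 0.33, SE 0.11, adjusted p = 0.175). The groups of Fdft1 did not overlap, although contralateral nerve 4 exceeded the highest uncrushed nerve only narrowly. Hmgcs1, at the pathway's entry and at 959 to 1197 CPM in all 7 libraries, had a difference of 0.08.

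Contralateral nerve 2 was the highest of all 7 libraries in all 23 cholesterol genes. The same nerve was the highest of its group in 22 of 25 myelin proteins and the lowest of all 7 libraries in 17 of 27 macrophage markers and 12 of 20 fibroblast and perineurial markers, and the part of cell makeup in the cholesterol difference was not tested. Without it 3 members were higher and the median was 0.13, 5 were higher without uncrushed nerve 1 or without uncrushed nerve 3, and without it and uncrushed nerve 3 only 2 were higher, with a median of 0.12. The sterol motif TCACNCCAC, searched on both strands, was in 1 of the 16 cholesterol genes with a promoter entry (Hmgcs1), against 1.44% of all genes.

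The regulators of the myelinating state also leaned to the higher side. Of 18 tested, 9 were higher, 1 was lower, 17 had a positive difference and the median was 0.23. Sox10, the transcription factor that defines SCs, was at 235, 296, 270.3 and 239.7 CPM in contralateral and at 213, 197 and 203 CPM in uncrushed nerves (log2 difference 0.35, SE 0.10, adjusted p = 0.142). Erbb3, the receptor through which SCs read axonal neuregulin, was at 140.3, 163, 154 and 139 CPM against 115, 131 and 119.6 CPM (log2 difference 0.29, SE 0.09). In both genes all contralateral nerves lay above all uncrushed nerves, with nerve 2 the highest. Srebf2 and Srebf1, the transcription factors of cholesterol and fatty acid genes, had differences of 0.28 and 0.31 without overlap, the kinase gene Mtor 0.24 without overlap, and Pou3f1, a factor of the promyelinating stage, 0.40 at 10 to 17 CPM. Egr2, which drives myelin genes with Sox10, had a difference of 0.01 and overlapping groups. Nrg1 was the single lower member, at 0.641, 0.900, 0.775 and 1.19 CPM against 1.6, 1.32 and 2.28 CPM. At this level a gene passes the filter on low counts through the group where it is high, so its lower value is a description. Leaving out 1 library left 6 to 10 members higher, and leaving out contralateral nerve 2 and uncrushed nerve 3 left 2, with a median of 0.18.

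**Figure D3:**
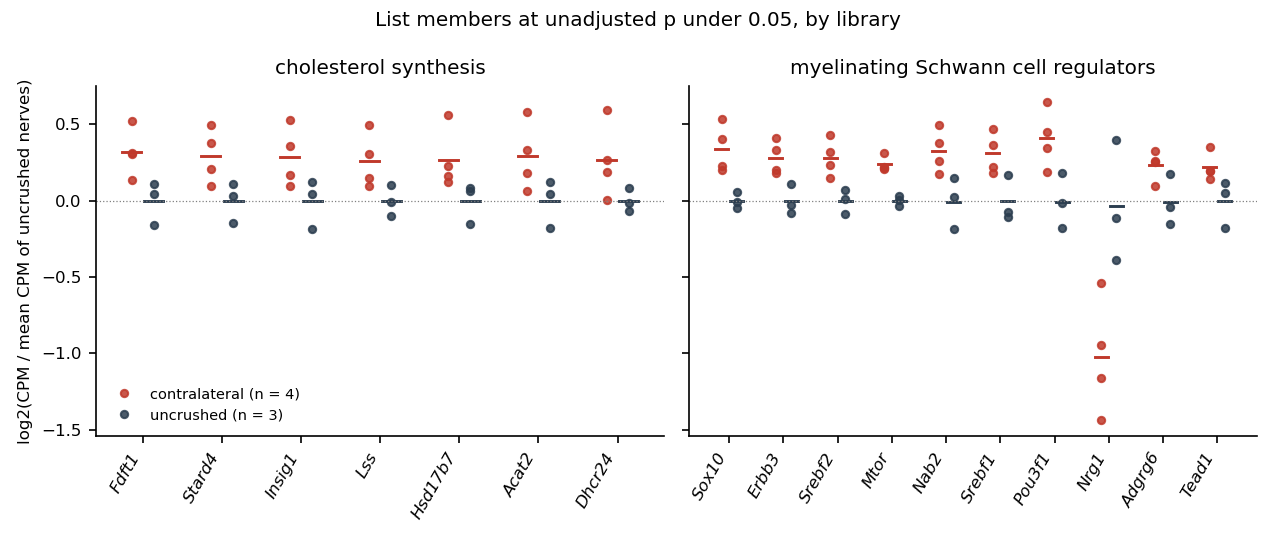
Members of the cholesterol list (left, 7 of the 9) and of the myelinating SC regulators (right) at the nominal limit, as log2 of CPM over the mean CPM of the uncrushed nerves, with 1 point per nerve and a line at each group's mean. Most contralateral points lie above 0 by less than 0.5, and Nrg1 is the one gene below it.

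Myelin proteins had mostly small positive differences. Of 25 tested, 1 was higher (Gpr37l1, 0.34) and 1 lower (Cntn1, -0.41) at the nominal limit, both with overlapping groups, while 23 had a positive difference and the median was 0.15. Without contralateral nerve 1, 7 were higher, without uncrushed nerve 1, 4, without contralateral nerve 4, 3, and without uncrushed nerve 2, 2, and without contralateral nerve 2 and uncrushed nerve 3 none passed in either direction (median 0.07). Mbp, the myelin basic protein, had a difference of 0.03, which turned negative under several other settings. Of 21 genes of fatty acid and galactolipid synthesis, 3 were higher (Acsl3, Elovl1 and Fasn, at 0.28, 0.24 and 0.27), none was lower, and the median was 0.15. Their higher share of 14.3% was the same as among protein-coding genes in the highest quartile of mean level. In that list 1 was higher without contralateral nerve 2 (median 0.09) or without uncrushed nerve 1, and none without contralateral nerve 2 and uncrushed nerve 3.

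Repair SC genes were mixed. Of 23 tested, 6 were higher (26.1%, against 5.67% of all genes), with Ngfr among them. In the other direction 2 were lower (8.70%, against 12.2%), and the median was 0.11. Atf3, a stress-induced transcription factor of injured neurons and SCs, was at 10.3, 8.85, 9.11 and 8.23 CPM in contralateral and at 4.01, 7.45 and 7.16 CPM in uncrushed nerves, without overlap (log2 difference 0.59, SE 0.21, adjusted p = 0.194). Crushed nerves held 125 ± 18.0 CPM of Atf3 (SD, n = 4, scaled over 11 libraries). Gfap, an intermediate filament of non-myelinating and dedifferentiated SCs, lay the other way, at 2.11, 2.78, 3.20 and 3.77 CPM against 5.26, 3.85 and 5.53 CPM (log2 difference -0.72, SE 0.24, adjusted p = 0.177). Mycn, at 1.92 to 5.86 CPM, had a difference of 0.68 with overlap. The higher members numbered 3 without contralateral nerve 1, without uncrushed nerve 2 or without uncrushed nerve 3. Without contralateral nerve 2 and uncrushed nerve 3, 3 were higher and none was lower. Immediate early genes, which report recent stimulation of cells and of tissue handling, had 3 higher and 2 lower members of 31 and a median of -0.01. Klf6 was the clearest of them, at 96.0, 101, 99.0 and 97.3 CPM against 69.9, 82.0 and 80.5 CPM (log2 difference 0.34, SE 0.08, adjusted p = 0.130).

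With all 7 libraries, no member of the inflammatory lists was higher. Of 29 interferon-stimulated genes, none was higher and 2 were lower (Oas3 and Zbp1, at -1.01 and -0.67). Of 17 tested cytokines and chemokines, none was higher and Ccl6 was lower (-0.67), and of 8 tested acute-phase genes, none was higher and Il6ra, a receptor chain of interleukin-6, was lower, at 27.3, 30.2, 33.8 and 35 CPM against 43.0, 39.4 and 36.9 CPM. The lower shares in these 3 lists were 6.90%, 5.88% and 12.5%, near or below the 12.2% of all genes, and are no result about these lists. The counts moved with single libraries: 2 interferon-stimulated genes were higher without uncrushed nerve 1 or 2, 1 cytokine without contralateral nerve 2 or uncrushed nerve 1, and 1 acute-phase gene without contralateral nerve 1 or uncrushed nerve 1. Lower interferon-stimulated genes numbered 5 without contralateral nerve 3 and 4 without uncrushed nerve 3, lower cytokines 3 and lower acute-phase genes 4 without contralateral nerve 1, and lower acute-phase genes 3 without uncrushed nerve 1.

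Macrophage, lymphocyte and neutrophil markers had negative medians, and mast cell markers a positive one. Of 27 macrophage markers, 4 were lower (14.8%, near the 12.2% of all genes), none was higher, 24 had a negative difference and the median was -0.24. Mertk, a receptor for apoptotic cells, was at 48.3, 48.7, 55.9 and 51.7 CPM in contralateral and at 61.6, 69.2 and 75 CPM in uncrushed nerves, without overlap (log2 difference -0.42, SE 0.09, adjusted p = 0.110). The summed level of the list overlapped, from 263 to 451 CPM in contralateral and from 393 to 456 CPM in uncrushed nerves, and Adgre1, the F4/80 antigen that defines macrophages, differed by -0.09 and was positive without contralateral nerve 2. Without contralateral nerve 1 the macrophage markers had 9 lower, and without contralateral nerve 2 or 3 they had 2, as they did without contralateral nerve 2 and uncrushed nerve 3 (median -0.08). Of 7 tested lymphocyte markers, 4 were lower (Cd8a, Cd3d, Cd4 and Ms4a1) without overlap, at low levels such as 0.525 to 1.37 CPM against 1.78 to 2.88 CPM for Cd8a. Markers this scarce can pass the filter on low counts through the group where they are high, so this count is a description. The defining T-cell genes Trac and Trbc2 were under 0.5 CPM in every library. Without contralateral nerve 2 and uncrushed nerve 3, 2 lymphocyte markers were lower. Of 16 neutrophil markers only 4 could be tested, of which 2 were lower and none was higher (median -0.63), with 1 lower without uncrushed nerve 3. S100a8, S100a9 and Ly6g were under 0.5 CPM in every library, and Csf3r was at 6.04, 4.13, 6.10 and 6.25 CPM against 7.13, 8.29 and 12 CPM. Mast cell markers had a positive median of 0.55, with 1 of 8 tested lower (Hdc) and none higher. Mcpt4, a mast cell protease, was at 12, 0.750, 4.94 and 5.16 CPM in contralateral and at 4.81, 0.721 and 0.163 CPM in uncrushed nerves (log2 difference 1.36, SE 0.81, adjusted p = 0.391), and Tpsb2, a tryptase, had a difference of 1.48 (SE 0.80). Contralateral nerve 1 was the highest and both groups overlapped in these 2 genes. Without contralateral nerve 2 or without uncrushed nerve 1, 4 mast cell markers were higher, and without contralateral nerve 1 none was, with a median of 0.15.

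Among the other cells of the nerve, pericyte and smooth muscle markers stood on the higher side, with 4 of 12 higher (Cspg4, Mcam, Pdgfrb and Notch3), none lower and a median of 0.12. Cspg4, the NG2 proteoglycan of pericytes, was at 37.0, 31.9, 32.3 and 31.2 CPM against 30, 24.4 and 24.2 CPM (log2 difference 0.33, SE 0.11, adjusted p = 0.167). The summed level of that list overlapped, at 379 to 406 CPM against 318 to 408 CPM. It gave 1 higher without uncrushed nerve 2, 1 without contralateral nerve 2 and uncrushed nerve 3, and 2 without contralateral nerve 2, 3 or 4 or uncrushed nerve 3. Of 20 fibroblast and perineurial markers 3 were lower (15%, near the 12.2% of all genes), led by Clec3b at -0.95, with a median of -0.28. Without contralateral nerve 1, 9 of them were lower. Endothelial markers had 1 higher and 1 lower of 21 and a median of 0.05, and 5 higher without uncrushed nerve 1. Of 7 tested erythrocyte markers none passed in either direction, and of 15 neuron markers 1 was lower.

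Plin4, a perilipin that coats lipid droplets and is abundant in fat cells, was among the genes with the smallest p. Plin4 (chromosome 17, 56100591 to 56109803, minus strand) was measured at 6.96, 12.2, 13.1 and 14.6 CPM in contralateral and at 32.2, 26.4 and 35 CPM in uncrushed nerves, a log2 difference of -1.41 (SE 0.19, adjusted p = 0.0855). The highest contralateral nerve was far below the lowest uncrushed one, and crushed nerves held 1.95 ± 1.43 CPM (SD, n = 4, scaled over 11 libraries). Of 8 tested fat-cell markers, 4 were lower (Plin4, Thrsp, Acvr1c and Lpl), but the defining Adipoq was at most 0.267 CPM and Cidec and Cfd were under 0.5 CPM in all 7 libraries. The summed level of the list was 109 to 125 CPM in contralateral and 133 to 166 CPM in uncrushed nerves. Without contralateral nerve 2 and uncrushed nerve 3, 3 of 9 were lower, with a median of -0.12. Muscle was likewise near absent: Acta1 and Ckm were under 0.5 CPM in every library, and of 10 tested muscle markers 1 was higher (Casq1) and 1 lower (Ttn).

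Genes of the cell cycle were lower in part: 5 of 27 were lower (18.5%, against 12.2% of all genes), none was higher, and the median was -0.29. Top2a, the topoisomerase of replicating chromosomes, was at 5.31, 3.90, 4.94 and 5.55 CPM in contralateral and at 8.46, 8.41 and 9.27 CPM in uncrushed nerves, without overlap (log2 difference -0.82, SE 0.17, adjusted p = 0.105). Tyms, the thymidylate synthase, was at 176, 129, 171 and 197 CPM against 213, 247 and 313 CPM (log2 difference -0.61, SE 0.15). In both genes uncrushed nerve 3, which stood apart, was the highest. The list had 3 lower members without uncrushed nerve 1, and 3 without contralateral nerve 2 and uncrushed nerve 3.

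RNA splicing factors lay almost all on the other side. Of 31 tested, 5 were higher (Srsf2, Hnrnpu, Cirbp, Rbm25 and Son), none was lower, and 30 had a positive difference around a median of 0.14. Their higher share of 16.1% was near the 14.3% of protein-coding genes in the highest quartile of mean level, whose median was 0.10. Srsf2, a serine and arginine rich factor, was at 44.1, 45.8, 42.6 and 44.9 CPM against 37.1, 36.2 and 33.3 CPM (log2 difference 0.32, SE 0.08, adjusted p = 0.135). This count was 1 without contralateral nerve 3, without uncrushed nerve 3, or without contralateral nerve 2 and uncrushed nerve 3, it was 2 without contralateral nerve 2, and it was 14 without uncrushed nerve 1 and 9 without uncrushed nerve 2. Of 18 glycolysis enzymes 4 were higher (Eno1, Pfkl, Ldhb and Pfkm), with a median of 0.14, while 75 subunits of oxidative phosphorylation gave 2 higher, 1 lower and a median of 0.00. Ribosomal proteins gave 0 of 82 in either direction. These 3 lists depended on uncrushed nerve 1, without which 8 glycolysis enzymes, 27 oxidative phosphorylation subunits and 45 ribosomal proteins were higher, and glycolysis had 1 or 2 higher without contralateral nerve 2 or 3 or uncrushed nerve 2 or 3. The unfolded protein and heat shock response split, with Atf4 higher by 0.28 and Ddit3 lower by 0.23 among 24 genes. Of 28 matrix collagens and laminins 1 was higher (Lama4, 0.22) and 2 lower (Postn, -0.57, and Col3a1), and of 17 hypoxia-responsive genes 2 were higher (Pfkfb3 and Kdm3a).

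**Figure D4:**
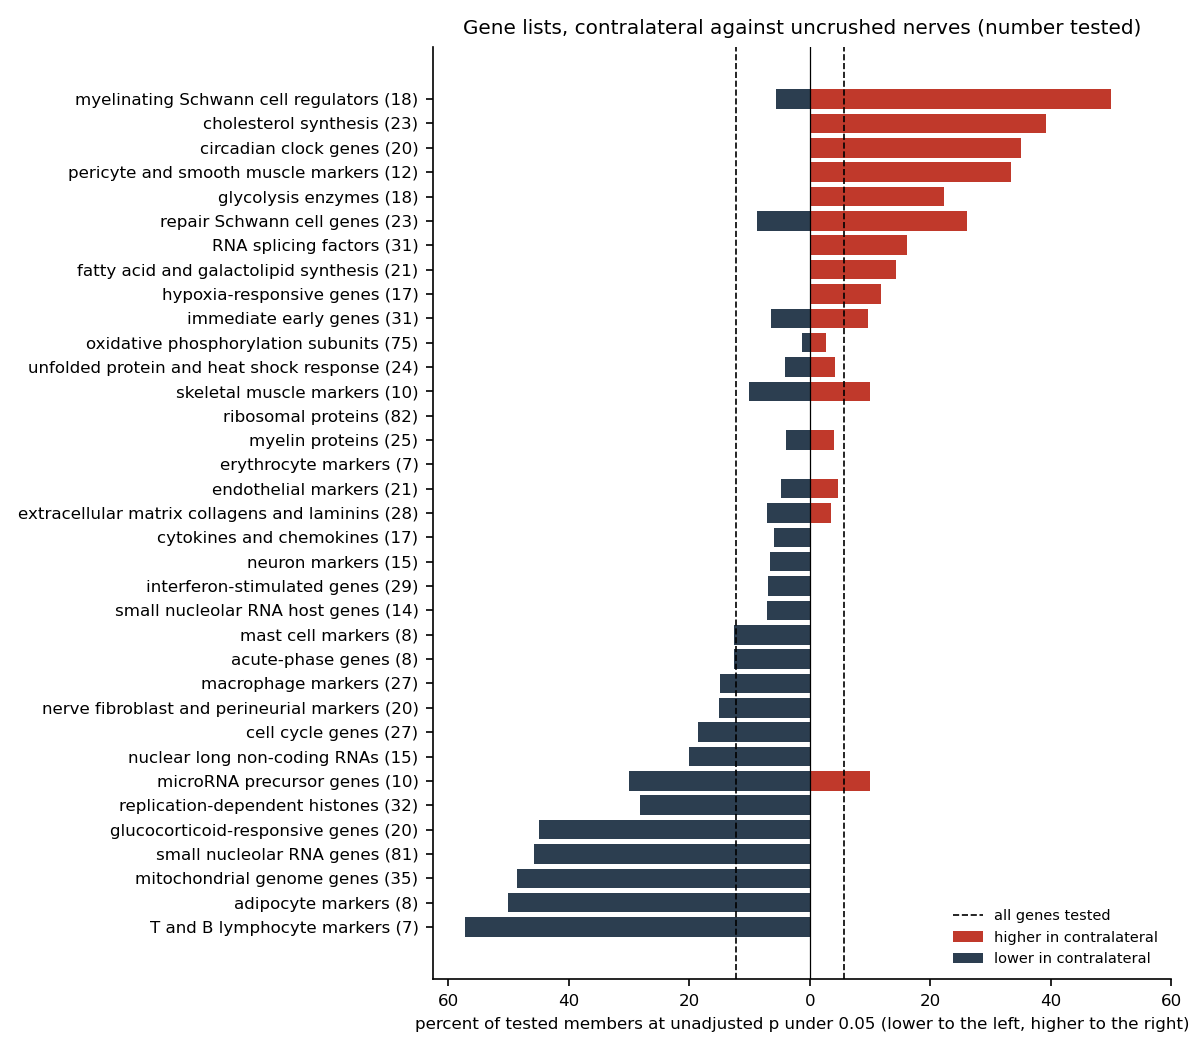
Percent of tested members at the nominal limit for each list with at least 7 tested, leaving out the 3 put together after the values had been seen, lower in contralateral nerves to the left and higher to the right, with the number tested in parentheses and dashed lines at the shares of all genes tested (12.2% lower and 5.67% higher). The lists shown were also chosen with earlier results of these data known. Myelinating SC regulators, cholesterol synthesis and clock genes reach farthest to the right, and lymphocyte, adipocyte and mitochondrial genome genes farthest to the left. All 17 lower members of the 35 mitochondrial genome genes are tRNAs. Summed, mitochondrial genome genes took 14.0 ± 0.960% of counts in contralateral and 15.0 ± 2.45% in uncrushed nerves (SD), with overlapping groups.

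Genes that are not protein-coding took a larger share of the lower genes than of the higher ones. Of the 2160 lower genes, 928 (43.0%) were not annotated as protein-coding, against 48 of the 1004 higher genes (4.78%) and 19.1% of all genes tested. Lower genes were also scarcer, with a median mean level of 1.94 on the log2 CPM scale against 5.16 for higher genes, and their median difference was larger in size (0.78 against 0.27). The filter on low counts can admit a scarce gene through whichever group is high. Its part in this count was not tested, and the count is a description.

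Summed over each library, protein-coding genes took 68.6, 72.7, 69.9 and 67.7% of counts in contralateral nerves and 61.4, 67.6 and 62.0% in uncrushed nerves. All contralateral nerves thus lay above all uncrushed nerves, though nerve 4 exceeded uncrushed nerve 2 only narrowly. The share of all other genes was 30.3 ± 2.15% (SD, n = 4) against 36.3 ± 3.42% (n = 3), a difference of -6.05 percentage points (two-sided exact permutation test, p = 0.0571, adjusted p = 0.243 over 17 shares). With 4 against 3 nerves there are 35 regroupings, and 0.0571 is the smallest p they can give, so this design cannot reach 0.05. On the authors' TPM scale, which corrects for transcript length, the difference was -1.78 percentage points. Transcripts annotated as retained introns took 4.41, 3.74, 4.25 and 4.40% of the counts of protein-coding genes in contralateral and 4.57, 4.57 and 4.89% in uncrushed nerves, a difference of -0.476 percentage points without overlap (exact permutation p = 0.0571). The 20 most abundant genes took 32.4 ± 0.677% against 35.7 ± 2.35%, also without overlap.

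The classes of non-coding gene were not carried by the same libraries. TEC genes, GENCODE's class for transcribed regions still awaiting proof of a gene, took 2.35, 1.68, 2.25 and 2.62% of counts in contralateral and 2.39, 2.93 and 4.13% in uncrushed nerves. Processed pseudogenes took 1.61, 1.16, 1.52 and 1.82% against 1.69, 2.05 and 2.87%. In both classes uncrushed nerve 3 was the highest, contralateral nerve 2 the lowest, and the groups overlapped. Ribosomal RNA genes were arranged otherwise, at 1.49, 1.16, 1.39 and 1.47% against 2.42, 1.19 and 2.91%, and small nuclear RNAs at 0.301, 0.282, 0.324 and 0.312% against 0.560, 0.247 and 0.495%. Here uncrushed nerves 1 and 3 were high and uncrushed nerve 2 lay among or below the contralateral nerves. The remaining signal recognition and other miscellaneous RNAs reached 7.45% in uncrushed nerve 1 against 4.06 to 4.49% in contralateral nerves. Library preparation removed ribosomal RNA by a step that the labels and the methods name differently, and the part of that step in these shares was not tested.

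**Figure D5:**
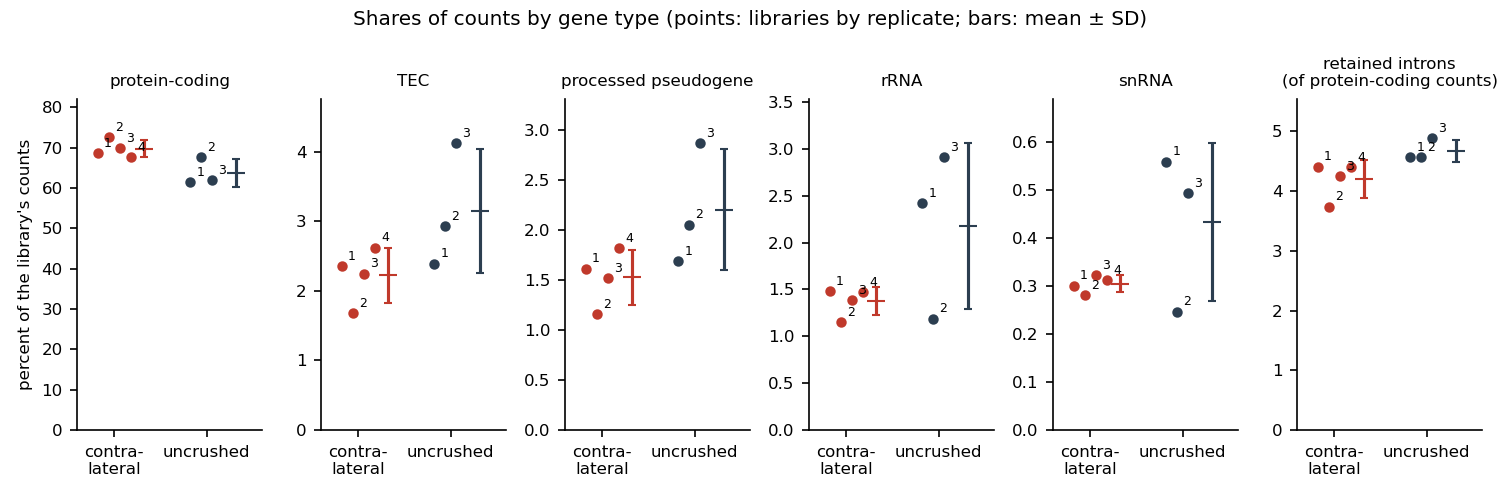
Percent of each library's counts from protein-coding genes, TEC genes, processed pseudogenes, rRNA and snRNA, and percent of protein-coding counts on retained-intron transcripts, with 1 numbered point per nerve and mean ± SD. Contralateral (n = 4) and uncrushed (n = 3) points are apart for protein-coding genes and retained introns and overlap in the other panels, where uncrushed nerve 3 or nerves 1 and 3 are high.

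Gene by gene, the lower non-coding genes were spread over the classes. Of 616 lincRNAs, 190 were lower and 6 higher (median -0.51), and of 803 TEC genes 197 were lower and 13 higher (median -0.31). Antisense genes gave 104 lower of 419, processed pseudogenes 124 of 568, small nucleolar RNAs 63 of 171, and genes of the microRNA type 14 of 27. By symbol, 10 genes named for a microRNA could be tested, hosts of precursors included, of which 3 were lower and 1 higher (Mir17hg). With at least 10 counts required in every library, 148 of 351 lincRNAs were lower and 5 higher, and 173 of 515 TEC genes were lower and 6 higher. The counts under the main filter depended on single libraries. Without uncrushed nerve 3, 94 lincRNAs, 114 TEC genes, 48 antisense genes, 70 processed pseudogenes, 18 small nucleolar RNAs and 6 genes of the microRNA type were lower. The lower genes were 118 lincRNAs, 76 processed pseudogenes and 39 small nucleolar RNAs without contralateral nerve 2. Small nucleolar RNAs had 19 lower without uncrushed nerve 1, 38 without contralateral nerve 1 and 136 without uncrushed nerve 2, and the microRNA type reached 21 without uncrushed nerve 1. Without contralateral nerve 2 and uncrushed nerve 3, 69 lincRNAs and 86 TEC genes were lower, with medians of -0.24 and -0.14, and 36 antisense genes, 49 processed pseudogenes, 9 small nucleolar RNAs and 3 of the microRNA type. Of the 20 mitochondrial tRNAs, 17 were lower with a median of -0.88, but 10 without contralateral nerve 2 and 4 without uncrushed nerve 3, where they took 0.250% of counts against 0.0842 to 0.158% in contralateral nerves. Of 42 rRNA genes 41 were lower, but 29 of them are copies of 5S rRNA that share reads and so are not separate measurements, and in none did the groups stay apart. Of 35 small nuclear RNAs 25 were lower, 8 without uncrushed nerve 1 and 12 without uncrushed nerve 3.

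The single genes that follow, apart from Snhg14, were named by the smallest p among genes not annotated as protein-coding whose groups did not overlap. Their separation is a condition of that rule. Gm26525 (chromosome 4, 88784455 to 88794391, minus strand) was at 3.39, 3.08, 3.58 and 3.77 CPM in contralateral and at 7.30, 8.53 and 9.60 CPM in uncrushed nerves, a log2 difference of -1.28 (SE 0.17, adjusted p = 0.0855). Gm43465, Gm43014 and G430049J08Rik followed at -0.89, -0.99 and -0.89 (adjusted p = 0.104 each). The host transcript Snhg14, which carries clusters of small nucleolar RNAs, was at 367, 272, 364 and 401 CPM against 508, 477 and 631 CPM (log2 difference -0.62, SE 0.14, adjusted p = 0.111). On the higher side, E130307A14Rik was at 14.3 to 14.8 CPM against 10.7 to 12 CPM and Gm37248 at 3.87 to 6.50 CPM against 2.44 to 3.49 CPM, while ENSMUSG00000106055 and ENSMUSG00000043858, which carry no type in the annotation used, had differences of 0.35 and 0.50.

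Features of protein-coding genes moved with the difference. Of 413 genes with 1 exon, 73 were lower and 9 higher (median -0.22), and of 11371 genes with at least 5 exons 878 were lower and 825 higher (median 0.04). In the quartile of genes with the lowest GC content, under 45.07%, 408 of 3584 were lower and 136 higher, and in the quartile with the highest, from 54.52%, 160 of 3586 were lower and 301 higher. In the quartile with the lowest mean level 683 of 3585 were lower (19.1%) and 20 higher, with a median of -0.38. In the highest quartile 146 were lower and 512 higher (14.3%), with a median of 0.10. Genes that an adult nerve is not known to use were also on the lower side: of 62 tested olfactory and vomeronasal receptors (of 1350 in the files) 17 were lower, none was higher and the median was -0.53, and of 15 axonemal dynein heavy chains, the motors of cilia, 8 were lower with a median of -0.73. Both lists were put together after the values had been seen. Scarce genes can pass the filter on low counts through the group where they are high. The lower counts of these lists and of the lowest quartile are therefore descriptions. Initiation factors of translation, likewise chosen afterwards, gave 7 higher and none lower of 54, with a median of 0.10. Their higher share of 13.0% was near that of the highest quartile of mean level. Replication-dependent histones, whose mRNAs end without a poly(A) tail, gave 9 lower and none higher of 32 (median -0.57), 4 lower without uncrushed nerve 1 and 15 without uncrushed nerve 2. The lower receptors numbered 10 without contralateral nerve 2 or without uncrushed nerve 3, 28 without uncrushed nerve 1 and 7 without contralateral nerve 2 and uncrushed nerve 3. The lower dyneins numbered 5 without contralateral nerve 2 or uncrushed nerve 2, 4 without uncrushed nerve 3 and 3 without contralateral nerve 2 and uncrushed nerve 3. The higher initiation factors numbered 4 without contralateral nerve 3, 12 without uncrushed nerve 1 and 2 without contralateral nerve 2 and uncrushed nerve 3.

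Of the protein-coding genes with the smallest p, 8 on the higher side belonged to no shared pathway list apart from Nr1d1. Dhrs3, a reductase that limits retinoic acid, was at 46.8, 45.5, 49.4 and 45.0 CPM in contralateral and at 30.6, 34.5 and 25.4 CPM in uncrushed nerves (log2 difference 0.62, SE 0.10, adjusted p = 0.104). S1pr3, a receptor for sphingosine 1-phosphate, was at 55.4, 63.0, 53.0 and 51.1 CPM against 40.8, 38.2 and 34.2 CPM (log2 difference 0.56, SE 0.10, adjusted p = 0.104). Both lay above the uncrushed range in each contralateral nerve, and such separation is a condition of the rule by which all 8 were named. Slc6a6, the taurine transporter, followed at 0.50, Cmtr1, which methylates the mRNA cap, at 0.50, the kinase Tec at 0.51, Micall2 at 0.64 and the orphan nuclear receptor Nr2f1 at 0.46 (adjusted p from 0.104 to 0.110).

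On the lower side the 8 were Plin4, Fkbp5, Zbtb16, Adamts15, Nkain3, Sfi1, Zfp994 and Zan. Adamts15, a secreted metalloprotease, was at 8.70, 9.30, 8.62 and 11.8 CPM in contralateral and at 15.9, 19.9 and 17.2 CPM in uncrushed nerves (log2 difference -0.88, SE 0.14, adjusted p = 0.104). Nkain3, a partner of the sodium pump, was at 2.75, 2.33, 1.94 and 2.38 CPM against 4.36, 6.97 and 6.34 CPM (log2 difference -1.30, SE 0.23, adjusted p = 0.104). Sfi1, a centrosome protein, and Zan, a sperm membrane protein, lay at -0.68 and -0.67, and the zinc finger gene Zfp994 at -0.52. All 8 kept their groups apart, a condition of the rule by which they were named.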

How the data were processed

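Whole-nerve RNA of 4 contralateral and 3 uncrushed SNs was sequenced. Per the methods, the authors trimmed the reads (Trimmomatic), mapped them (STAR) and estimated expression of the Ensembl GRCm38 transcripts (RSEM). The expected counts they deposited are estimated reads per transcript without normalization. The deposited TPM values, scaled by the authors to transcript length and library size, served for 1 alternative of the shares. The deposited GC content of each transcript is a fraction. The authors' FPKM values and the mutant libraries were not used here. The labels name a SMARTer Stranded pico-input kit with built-in rRNA removal, and the methods a TruSeq kit with RiboZero. Uncrushed library 3 is numbered by its title, while its description gives 4.

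For each gene, the expected counts of its transcripts were added and the sum rounded. Genes were kept by filterByExpr (minimum count 10), scaled by TMM and tested with edgeR's quasi-likelihood test (edgeR 4.0.16, R 4.3.3) with Benjamini-Hochberg adjustment over all genes tested. The limits were a fold of 2 and an adjusted p of 0.05, and an unadjusted p under 0.05 for counts. The SE is the log2 fold change over the square root of F. Scripts were tested on simulated data. Shares were compared by two-sided exact permutation tests. GENCODE M21 gave the type and position of 42451 of 43068 genes. The fit used no block, since replicate numbers name different animals.

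The genes named were the 8 protein-coding and 4 other genes per direction with the smallest p (mean log2 CPM from 1 up, groups apart), up to 3 members per list, genes at an adjusted p of 0.05 with a replicate block, 10 injury genes and 11 cell markers. The members and lists were chosen with earlier results of these data known. Alternatives were RLE and upper-quartile scaling, other count filters, protein-coding genes alone, a replicate block, edgeR's exact test, DESeq2 1.42.0, limma voom (limma 3.58.1), all 11 crush libraries in 1 fit and leaving out each library. Some genes that these rules name are not reported here.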

Additional observations from a re-analysis of the deposited data

Results flagged for a closer look

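In each group of 4 contralateral nerves, the gap of the highest or lowest nerve to its neighbour was divided by the group's range and compared with Dixon's critical value. Of 206 quantities 6 exceeded it, and chance alone gives about 1 in 20. Nerve 1 stood apart in 4 of them. The summed level of endothelial markers was lowest in nerve 1, at 443 CPM against 517 to 530 CPM in the others (gap over range 0.848), and that of fibroblast and perineurial markers was highest there, at 6869 CPM against 5489 to 5684 CPM (0.859). Klf2, a transcription factor that endothelial cells raise under flow, was lowest in nerve 1 at 10.9 CPM against 16.4 to 17.3 CPM (0.847), and Hdc, the histamine-forming enzyme of mast cells, was highest there at 3.3 CPM against 1.5 to 1.74 CPM (0.865). Csf3r, a receptor of neutrophils, was lowest in nerve 2, at 4.13 CPM against 6.04 to 6.25 CPM (0.904). Gm20867, a gene with similar copies on the Y chromosome, was highest in nerve 4, at 10 CPM against 3.97 to 4.50 CPM (0.912). Groups of 3 uncrushed nerves are too small for this rule.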

How the results depend on the processing

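Genes past a fold of 2 and an adjusted p of 0.05, of which edgeR's quasi-likelihood test gave none, depended on the tool and the filter. Higher genes numbered 13 without a count filter, 2 with edgeR's exact test, and 0 with any 1 library left out. Lower genes numbered 128 without a filter, 161 with the exact test, 31 with DESeq2, 1 among protein-coding genes alone, 1 with all 11 crush libraries in one fit, and 0 to 95 with 1 library left out, the most without uncrushed nerve 2 (95) and uncrushed nerve 1 (30). At an unadjusted p under 0.05, 585 genes were higher with upper-quartile scaling (2411 lower), 1609 without a filter (3527 lower) and 433 without contralateral nerve 2 and uncrushed nerve 3 (962 lower), an alternative chosen after seeing the data. Leaving out 1 library gave 550 to 1536 higher, lowest without contralateral nerves 2 (550) and 3 (561) and highest without uncrushed nerve 1 (1536), and 1230 to 2253 lower, lowest without uncrushed nerve 3 (1230, of which 1074 were also lower with all libraries). RLE scaling gave 1215 higher and 2038 lower. The median log2 difference of all genes was -0.16 without a filter and within 0.06 of 0 otherwise. The share of genes not protein-coding kept its direction throughout, from -8.02 to -4.92 percentage points with 1 library left out, as did retained introns, from -0.546 to -0.322 points. A fit with a block for the replicate number gave 6 lower genes past both limits, and 15 passed the adjusted p alone, 14 of them lower, with Nr1d1 the single higher one. Nerves with the same number did not deviate together (mean correlation -0.0054 over 3 pairs, 0.0016 over 9 other pairs), and the numbers name different mice. Of 2647 values of named genes under alternatives 13 turned sign, in 5 genes that had not passed: Mbp was at -0.0121 with upper-quartile scaling, -0.0033 among protein-coding genes alone, -0.0894 without contralateral nerve 2 and uncrushed nerve 3, and -0.0378 to 0.122 with 1 library left out. With 1 library left out, Adgre1 ranged from -0.36 to 0.14, Rpl34 from -0.414 to 0.0721 (highest without uncrushed nerve 1) and Shh from -0.0308 (without uncrushed nerve 2) to 0.423. Adgre1 was at 0.27 and Hba-a2 at 0.0235 without contralateral nerve 2 and uncrushed nerve 3, and Hba-a2 at 0.00683 with limma voom. The cause of these shifts was not tested.

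With 4 against 3 nerves, exact tests of single values cannot reach 0.05, and genes under about 0.5 CPM were not measurable in the shallowest library.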
